A study of Rattus norvegicus with 12 samples.

Results

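The Hedgehog pathway of the ovary is described here through 9 genes chosen by name: the ligands Dhh and Ihh, the receptor Ptch1, the signal transducer Smo, the ligand-binding inhibitor Hhip, the GLI inhibitor Sufu and the transcription factors Gli1, Gli2 and Gli3. All 9 were found among the 19730 genes of the deposited table, and all 9 were among the 13430 genes that had a mean of at least 1 FPKM (fragments scaled to gene length and library size) and were tested. RNA of whole ovaries of wild type female Sprague Dawley rats at postnatal week 15 was sequenced in 12 libraries, 4 in each of 3 groups. The control group had no treatment and standard food. The PCOS group, a model of polycystic ovary syndrome, received the aromatase inhibitor letrozole for 30 days with a high-fat diet, and the PCOS-MV group was then given mogroside V, a triterpene glycoside of the monk fruit, for 30 days, in a fruit preparation that also held other constituents. Model rats had been picked for an estrous cycle that stayed in metestrus and diestrus. Letrozole and the diet were given together, so their effects cannot be told apart.

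Hedgehog ligands are secreted proteins that bind Ptch1 on neighbouring cells and relieve its block on Smo, which then acts through the primary cilium to keep the GLI proteins from being cut into repressors or held back by Sufu. In the growing follicle, granulosa cells are known to secrete Dhh and Ihh, and the theca and stromal cells around them respond. Gli1, Ptch1 and Hhip are widely used as readouts because GLI proteins activate them in many tissues. The libraries were made from whole ovary, so the values do not place any of these genes in theca cells, and fewer cells of a type cannot be told apart from less RNA per cell.

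The promoters of Ptch1, Gli3 and Sufu are shown because the first pair held the core of the GLI binding motif, and Ptch1 and Sufu were the members that changed in PCOS ovaries. Each runs from 250 bases before to 50 bases after the gene's start, 5′ to 3′ on the gene's strand, from RefSeq on assembly GRCr8. The capitals mark the core CCACCCA, here in its reverse complement TGGGTGG.
Ptch1 (chr17:1555321-1555620, plus strand): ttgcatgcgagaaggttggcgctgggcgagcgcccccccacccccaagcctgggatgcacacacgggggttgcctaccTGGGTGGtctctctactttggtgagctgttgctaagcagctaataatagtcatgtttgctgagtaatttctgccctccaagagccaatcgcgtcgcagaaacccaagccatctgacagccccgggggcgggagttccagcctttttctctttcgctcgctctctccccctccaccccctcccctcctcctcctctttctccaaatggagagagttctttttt
Gli3 (chr17:54405149-54405448, minus strand): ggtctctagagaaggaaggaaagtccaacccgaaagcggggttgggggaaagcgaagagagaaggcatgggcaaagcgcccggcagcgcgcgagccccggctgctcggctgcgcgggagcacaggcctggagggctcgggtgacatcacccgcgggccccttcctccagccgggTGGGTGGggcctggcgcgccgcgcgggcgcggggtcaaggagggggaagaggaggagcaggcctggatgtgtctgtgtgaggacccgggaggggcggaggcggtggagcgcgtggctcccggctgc
Sufu (chr1:255198939-255199238, plus strand): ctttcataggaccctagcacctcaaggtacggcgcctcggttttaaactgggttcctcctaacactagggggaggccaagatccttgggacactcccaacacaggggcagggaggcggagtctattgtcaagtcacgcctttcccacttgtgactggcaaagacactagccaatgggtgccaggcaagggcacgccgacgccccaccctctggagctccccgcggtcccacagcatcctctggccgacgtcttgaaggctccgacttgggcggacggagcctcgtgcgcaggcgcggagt

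Promoters of 7 of the 9 members were matched by symbol in the RefSeq table, and the core, searched on both strands, was present in 2 of the 7. In Ptch1 it began 172 bases before the start and in Gli3 76 bases before it. Ptch1 is on the plus strand in RefSeq on GRCr8 and on the minus strand in the authors' table, whose build is not given. The reason for this difference was not tested. Of all 33469 promoters in the table, 8.87% held the core, and of the 10805 that belonged to tested genes, 9.13% did. The Ptch1 core had GA before it on the motif's strand, a longer form of the motif that was looked for after this promoter had been read. This longer form was in 1 of the 7 member promoters and in 0.385% of all promoters. A match of letters is a description of the window and does not show that a GLI protein binds there. The Sufu promoter did not hold these letters in this window.

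Levels of the 9 genes differed widely within the ovary. Per kilobase, the means over the 4 control libraries ranged from 1.46 ± 0.379 FPKM (SD, n = 4) for Gli1 to 22.8 ± 3.71 FPKM (SD, n = 4) for Ptch1. Ptch1 and Smo were the most abundant in all 3 groups, Ihh and Sufu followed, and Dhh, Hhip, Gli3 and Gli2 lay between 1.73 and 5.78 FPKM in every library. In the control group, Ptch1 and Smo overlapped in their 4 values, as did Hhip, Dhh, Gli3 and Gli2. Within a library, Ptch1 was above Smo in every control rat and below Smo in every PCOS rat. In PCOS-MV their order differed between rats. The order of Hhip, Dhh, Gli3 and Gli2 changed between control rats. Gli1 was the least abundant member by group mean in every group.

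**Figure D1:**
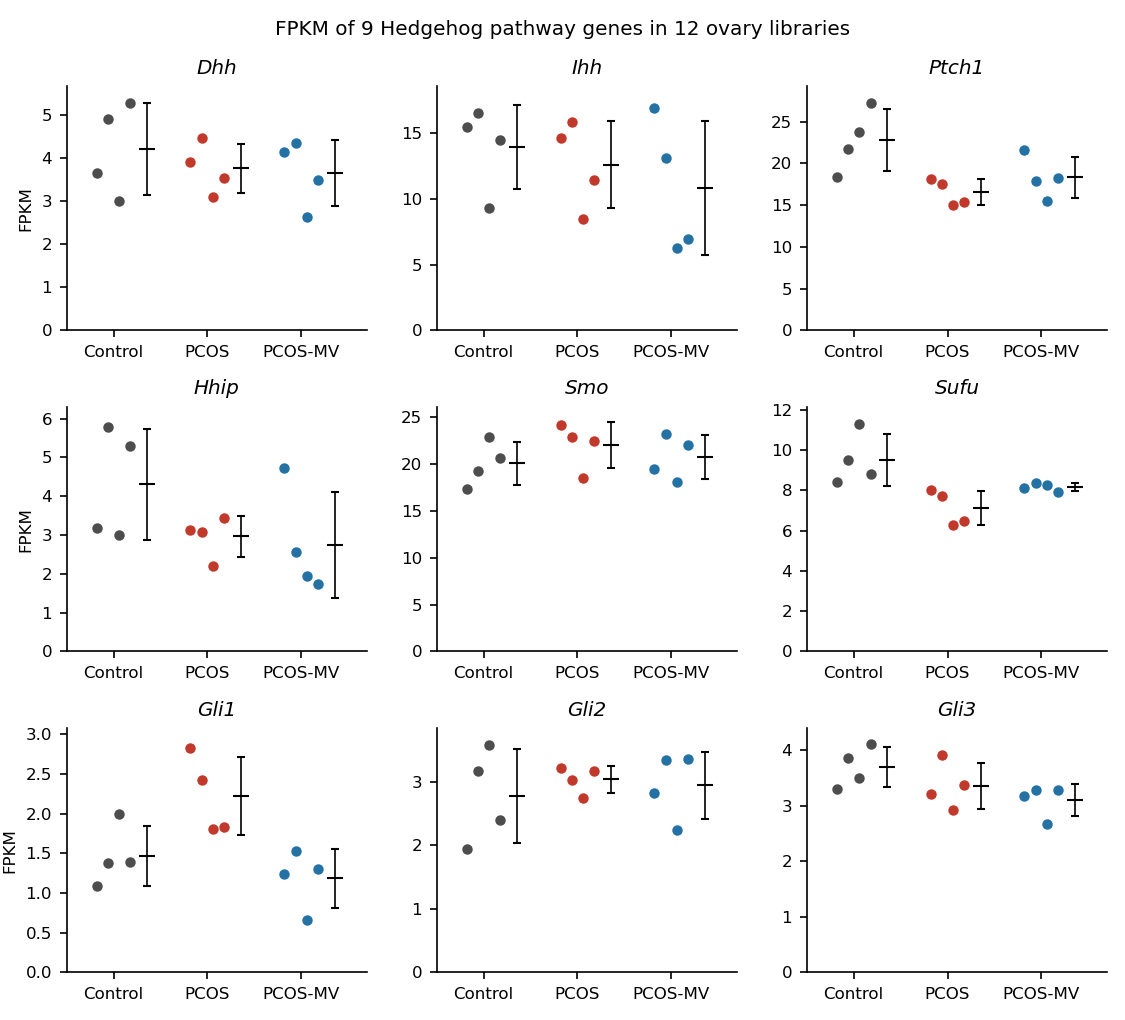
FPKM of the 9 Hedgehog pathway genes (vertical axes, starting at 0) in the control, PCOS and PCOS-MV libraries (n = 4 each), drawn from replicate 1 to 4 from left to right, with the mean and SD of each group beside the points. Ptch1 and Sufu of the 4 PCOS libraries lie below the control libraries, Gli1 of the 4 PCOS-MV libraries lies below the PCOS libraries, and the other 6 genes overlap in these 2 comparisons.

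In PCOS ovaries, the receptor Ptch1 and the GLI inhibitor Sufu were lower than in control ovaries, and the ligands, Smo and the GLI factors did not pass the test. A gene was called when the adjusted p of limma (Benjamini-Hochberg over all 13430 genes, on log2(FPKM + 1)) was under 0.05. By this rule, 2 of the 9 members were called, both lower, beside 27.4% of all tested genes in either direction and 15.6% that were lower, so the share of members called was near that of all genes. The build behind the coordinates of the authors' table is not given in the sources used here. The median log2 fold change of the members was -0.12 and that of all tested genes -0.03, and the median size of change, whatever its direction, was 0.14 for the members and 0.22 for all genes.

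Ptch1 (ENSRNOG00000019354, chromosome 17, 1029048 to 1093873 on the minus strand of the authors' table), which binds the ligand and is itself a Hedgehog target, was at 18.4, 21.8, 23.8 and 27.3 FPKM in control replicates 1 to 4 and at 18.2, 17.6, 15.1 and 15.4 FPKM in PCOS replicates 1 to 4. Every PCOS library lay below every control library, although PCOS replicate 1 and control replicate 1 nearly touched. Mean Ptch1 was 0.726-fold of control, a log2 fold change of -0.43 (SE 0.12, limma adjusted p = 0.0293, exact two-sided permutation p = 0.0286, the smallest that 4 libraries against 4 can give). In the 4 PCOS-MV libraries Ptch1 was at 21.6, 17.9, 15.5 and 18.3 FPKM, which overlapped both other groups. Sufu (ENSRNOG00000019807, chromosome 1, 266143818 to 266239016, plus strand), which holds GLI proteins in the cytoplasm, was at 8.40, 9.49, 11.3 and 8.80 FPKM in control and at 8.01, 7.70, 6.28 and 6.49 FPKM in PCOS replicates 1 to 4. Again no PCOS library reached the lowest control library. Mean Sufu was 0.750-fold of control, a log2 fold change of -0.37 (SE 0.11, limma adjusted p = 0.0393, exact permutation p = 0.0286). In PCOS-MV ovaries Sufu was at 8.12, 8.36, 8.27 and 7.89 FPKM, a narrow range between the means of the other groups.

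Both calls depended on single libraries. For Ptch1, the limma adjusted p was 0.0574, 0.0556 and 0.0629 without control replicate 2, 3 or 4, and 0.0520, 0.0771 and 0.0812 without PCOS replicate 2, 3 or 4, with log2 fold changes between -0.52 and -0.34 over all 8 libraries left out. For Sufu, the adjusted p was 0.0850, 0.0687 and 0.0570 without the same 3 control libraries and 0.0590, 0.0995 and 0.105 without the same 3 PCOS libraries, and the log2 fold change stayed between -0.42 and -0.29. With a library left out, fewer samples were compared. Of all tested genes, 31.0% did not overlap between the PCOS and control groups and 17.2% were lower in PCOS without overlap, and 2 of the 9 members, Ptch1 and Sufu, were among them.

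The ligands showed no change that passed the test. Ihh, one of the ligands known from granulosa cells, was at 15.4, 16.5, 9.30 and 14.4 FPKM in control, 14.6, 15.8, 8.46 and 11.4 FPKM in PCOS and 16.9, 13.1, 6.24 and 6.96 FPKM in PCOS-MV replicates 1 to 4. The 3 groups overlapped throughout. Its log2 fold change was -0.14 in PCOS against control (95% interval -0.64 to 0.36) and -0.27 in PCOS-MV against PCOS (-0.99 to 0.44), so changes of either sign and of considerable size remain within these intervals. Dhh, the other granulosa ligand, was at 3.66, 4.91, 3.00 and 5.27 FPKM in control, 3.91, 4.47, 3.11 and 3.55 FPKM in PCOS and 4.14, 4.36, 2.64 and 3.50 FPKM in PCOS-MV libraries. Its log2 fold change was -0.12 (95% interval -0.48 to 0.25) in PCOS against control and -0.04 (-0.36 to 0.29) in PCOS-MV against PCOS. Replicate 3 held the lowest Dhh and the lowest Ihh of its group in all 3 groups. The labels do not say what a shared number stands for, and its part in these values was not tested. Shh, the ligand of most embryonic tissues and no member, was listed at 0 in 5 libraries and reached at most 0.0913 FPKM, in PCOS replicate 1, and was not tested.

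Smo, the transducer that Ptch1 holds in check, was at 17.4, 19.3, 22.9 and 20.7 FPKM in control, 24.2, 22.9, 18.5 and 22.5 FPKM in PCOS and 19.5, 23.3, 18.1 and 22.1 FPKM in PCOS-MV replicates 1 to 4. The groups overlapped, and its log2 fold change was 0.13 (95% interval -0.12 to 0.38) in PCOS against control and -0.08 (-0.33 to 0.16) in PCOS-MV against PCOS, among the narrowest intervals of the 9 genes. Hhip, a membrane protein that sequesters the ligands, was at 3.17, 5.78, 2.99 and 5.30 FPKM in control, 3.13, 3.08, 2.21 and 3.43 FPKM in PCOS and 4.72, 2.56, 1.94 and 1.73 FPKM in PCOS-MV libraries. Control replicates 2 and 4 and PCOS-MV replicate 1 were the highest, PCOS-MV replicates 3 and 4 were the lowest, and the groups overlapped. Its mean in PCOS ovaries was 0.687-fold of control, a log2 fold change of -0.39 that did not pass the test (SE 0.20, limma adjusted p = 0.177, 95% interval -0.84 to 0.06).

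Gli1 was the only member called between PCOS-MV and PCOS ovaries. This transcription factor (ENSRNOG00000025120, chromosome 7, 70620766 to 70630338, minus strand), which activates Hedgehog target genes and is itself a target, was at 1.09, 1.37, 1.99 and 1.40 FPKM in control, 2.82, 2.43, 1.80 and 1.83 FPKM in PCOS and 1.25, 1.53, 0.655 and 1.31 FPKM in PCOS-MV replicates 1 to 4. All 4 PCOS-MV libraries lay below the 4 PCOS libraries, while control replicate 3 reached into the PCOS range. Mean Gli1 in PCOS-MV ovaries was 0.533-fold of PCOS, a log2 fold change of -0.57 (SE 0.16, limma adjusted p = 0.0324, exact permutation p = 0.0286). This was 1 of 9 members, lower, beside 25.7% of all tested genes called in this comparison and 11.4% called lower. It was also the 1 of 9 that did not overlap, beside 30.0% of all tested genes in either direction and 13.3% lower. The median log2 fold change was -0.08 for the members and 0.03 for all tested genes, and the median size of change was 0.13 against 0.21. The call was lost without PCOS replicate 1 (limma adjusted p = 0.0767), PCOS replicate 2 (0.0830), PCOS-MV replicate 1 (0.0541) or PCOS-MV replicate 4 (0.0522), and the log2 fold change lay between -0.64 and -0.44 over the 8 libraries left out.

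In PCOS against control, mean Gli1 was 1.52-fold, but the call was not made (log2 fold change 0.39, SE 0.15, limma adjusted p = 0.0962, 95% interval 0.04 to 0.74). Without control replicate 3, the log2 fold change was 0.49 with a limma adjusted p of 0.0349. That library stood apart from the others of its group: its smooth muscle marker Acta2 was at 305 FPKM against 117 to 156 FPKM in the other control libraries, and its oviduct marker Pax8 was at 10.7 FPKM against 0.265 to 0.870 FPKM in the other 11 libraries. The part of this tissue in the Gli1 value was not tested. Gli1 was then the 1 member called in this comparison, since Ptch1 and Sufu were not. With Gli1 under 3 FPKM in every library, the added 1 FPKM of the log scale makes these fold changes smaller than the ratios of the means.

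The other GLI factors did not pass the test. Gli2, the main activator of the pathway in many tissues, was at 1.94, 3.17, 3.58 and 2.40 FPKM in control, 3.22, 3.03, 2.75 and 3.18 FPKM in PCOS and 2.83, 3.35, 2.25 and 3.36 FPKM in PCOS-MV replicates 1 to 4. All PCOS values lay within the control range. Its log2 fold change was 0.12 (95% interval -0.21 to 0.45) in PCOS against control and -0.04 (-0.30 to 0.21) in PCOS-MV against PCOS. Gli3, which is cut into the main repressor in the absence of ligand, was at 3.30, 3.85, 3.50 and 4.12 FPKM in control, 3.21, 3.91, 2.92 and 3.38 FPKM in PCOS and 3.17, 3.28, 2.67 and 3.28 FPKM in PCOS-MV libraries. The intervals of its log2 fold change were -0.34 to 0.12 in PCOS against control and -0.31 to 0.14 in PCOS-MV against PCOS.

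Between PCOS-MV and control ovaries, 0 of 9 members were called by limma. In this comparison 1 gene of all tested was called (0.00745%), and 8.50% of all tested genes had an unadjusted p under 0.05. No member had an unadjusted p under 0.05 here. Gli3 and Sufu were lower in all 4 PCOS-MV libraries than in all 4 control libraries, 2 of 9 members beside 5.10% of all tested genes that did not overlap and 2.29% that were lower without overlap. Their log2 fold changes were -0.19 for Gli3 (SE 0.10, limma adjusted p = 0.618, exact permutation p = 0.0286) and -0.19 for Sufu (SE 0.09, limma adjusted p = 0.618, exact permutation p = 0.0286). The median log2 fold change of the 9 members was -0.19, and that of all tested genes was -0.0037. Hhip and Ihh had the lowest estimates, -0.53 (95% interval -1.16 to 0.09) and -0.41 (-1.12 to 0.30), with overlapping groups.

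**Figure D2:**
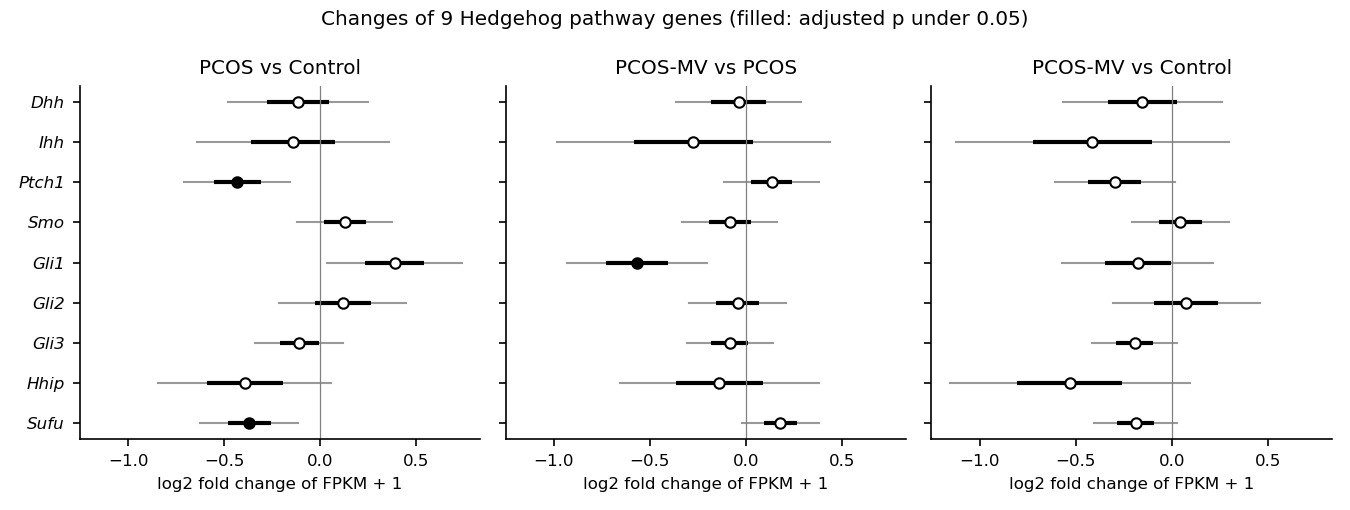
Log2 fold changes of FPKM + 1 of the 9 genes in PCOS against control, PCOS-MV against PCOS and PCOS-MV against control (4 libraries against 4), with thick bars for the SE and thin bars for the 95% interval of limma, and filled points for an adjusted p under 0.05. Ptch1 and Sufu are filled on the left at -0.43 and -0.37, Gli1 is filled in the middle at -0.57, and no point is filled on the right.

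Around the 9 members, 75 further genes of the pathway were listed by role, of which 72 were matched by name and 68 tested. In PCOS against control, 7 of the 68 rose and 10 fell, 25.0% in all beside 27.4% of all tested genes. In PCOS-MV against PCOS, 8 rose and 7 fell, 22.1% beside 25.7%. These 2 comparisons share the PCOS libraries. In PCOS-MV against control, 0 of the 68 were called by limma, and 6 had an unadjusted p under 0.05. Without control replicate 3, the genes called in PCOS against control numbered 4 for ligand release, 3 for reception, 5 for the cilium, 2 for GLI processing and 7 for the responsive genes, beside 3, 3, 4, 2 and 5 with it. Together 20 of the 68 were then called, 29.4% beside 29.2% of all tested genes.

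**Figure D3:**
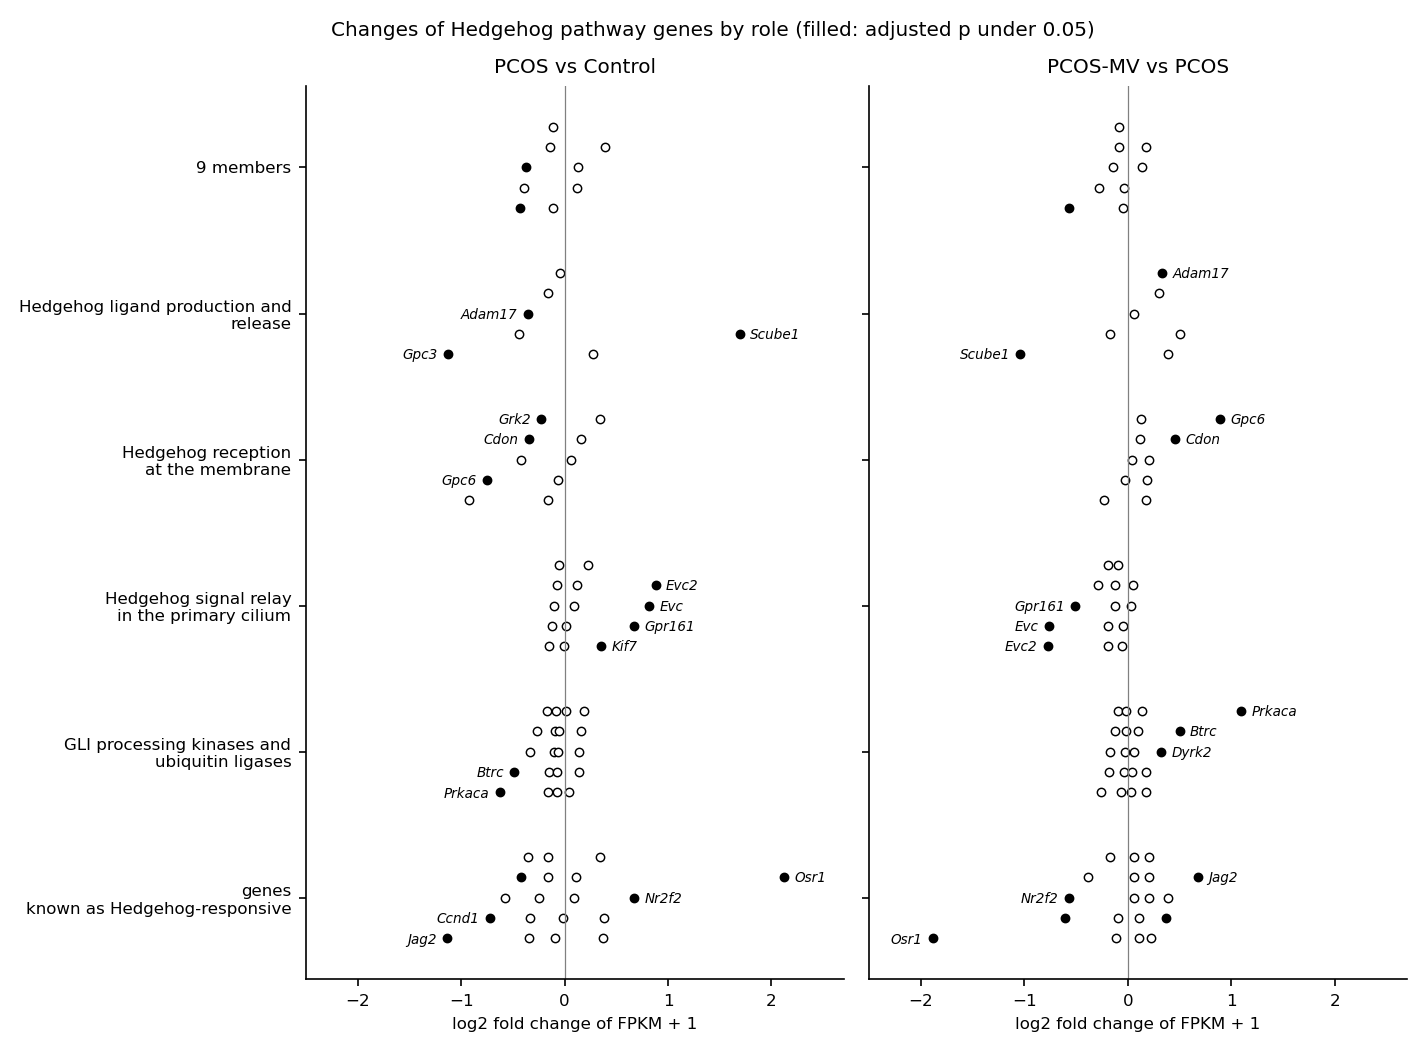
Log2 fold changes of FPKM + 1 of the tested Hedgehog pathway genes by role (rows; the vertical offset within a row only separates points), in PCOS against control on the left and PCOS-MV against PCOS on the right, with filled points for a limma adjusted p under 0.05. Most points are open and lie near 0, and Scube1 at 1.69 and Osr1 at 2.12 are the farthest to the right in PCOS against control.

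Of the 10 tested genes that receive the ligand at the membrane, 0 rose and 3 fell in PCOS, and 2 rose and 0 fell in PCOS-MV against PCOS. These shares were near the 27.4% and 25.7% of all tested genes called in the same comparisons. Gpc6, a glypican of the cell surface, fell from 1.69 ± 0.281 FPKM (SD, n = 4) to 0.596 ± 0.106 FPKM and was at 2.06 ± 0.923 FPKM in PCOS-MV (limma adjusted p = 0.00277 and 0.0121). The coreceptor Cdon fell by 0.34 (log2) in PCOS (limma adjusted p = 0.0318) and rose by 0.46 in PCOS-MV against PCOS (limma adjusted p = 0.0215), and the Smo kinase Grk2 fell by 0.23 in PCOS (limma adjusted p = 0.0383). The fall of Cdon was lost without control replicate 2 or 3 or PCOS replicate 2, 3 or 4 (limma adjusted p 0.0633 to 0.0862), its rise without PCOS replicate 2, 3 or 4 or PCOS-MV replicate 1 or 2 (0.0502 to 0.0593), and the fall of Grk2 without control replicate 1, 2 or 4 or PCOS replicate 2, 3 or 4 (0.0552 to 0.105). The other coreceptors, Boc and Gas1, were not called in these comparisons.

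Of the genes that make or release the ligands, 7 were tested, and 1 rose and 2 fell in PCOS, 42.9% beside 27.4% of all tested genes. Scube1, a secreted protein of the family that helps lipid-bearing Hedgehog leave the cell, was at 3.54, 5.72, 7.17 and 5.26 FPKM in control, 23.2, 13.6, 16.9 and 26.1 FPKM in PCOS and 10.3, 7.60, 7.48 and 10.6 FPKM in PCOS-MV replicates 1 to 4. The PCOS libraries did not overlap either other group. Its mean rose 3.68-fold in PCOS (log2 fold change 1.69, SE 0.23, limma adjusted p = 0.00101) and fell to 0.452-fold in PCOS-MV against PCOS (-1.04, SE 0.21, limma adjusted p = 0.00801). Scube2 and Scube3 of the same family were not called in these comparisons. Their means in control, PCOS and PCOS-MV were 1.88, 1.11 and 1.64 FPKM for Scube2 and 3.82, 5.05 and 4.49 FPKM for Scube3. Gpc3, a glypican that competes with Ptch1 for ligand, fell from 11.7 ± 2.95 FPKM (SD, n = 4) to 5.01 ± 2.09 FPKM in PCOS (limma adjusted p = 0.0210), a call lost without control replicate 4 (0.0566) or PCOS replicate 4 (0.0512). Adam17, a sheddase, fell by 0.35 (log2) in PCOS (limma adjusted p = 0.0428) and rose by 0.33 in PCOS-MV against PCOS (limma adjusted p = 0.0178). Its fall was lost without control replicate 2 or 4 or any 1 PCOS library (limma adjusted p 0.0582 to 0.104) and its rise without PCOS replicate 4 (0.0541) or PCOS-MV replicate 2 (0.0503).

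At the primary cilium, 4 of 14 tested genes rose in PCOS and 0 fell, and 3 of the 14 fell in PCOS-MV against PCOS. These shares, 28.6% and 21.4%, were near the 27.4% and 25.7% of all tested genes called. Evc and Evc2, partners that anchor Smo signalling at the base of the cilium, were called in both directions. Evc was at 4.36, 4.79, 5.76 and 4.69 FPKM in control, 10.7, 8.42, 10.97 and 7.63 FPKM in PCOS and 5.20, 4.86, 4.54 and 5.83 FPKM in PCOS-MV replicates 1 to 4. Evc2 was at 3.56, 4.16, 6.10 and 3.86 FPKM, 9.97, 7.46, 10.5 and 7.77 FPKM, and 5.52, 4.59, 4.37 and 4.64 FPKM in the same order. In both genes every PCOS library was above every other library. Evc rose 1.93-fold (log2 fold change 0.81, SE 0.13, limma adjusted p = 0.0021) and Evc2 2.02-fold (0.88, SE 0.16, limma adjusted p = 0.00451) in PCOS, and in PCOS-MV against PCOS the log2 fold changes were -0.76 and -0.77 (limma adjusted p = 0.00346 and 0.00283). In the authors' table the genes lie head to head on chromosome 14, 1703 bases apart, on opposite strands.

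Gpr161, a ciliary receptor that raises cAMP and holds the pathway off, was at 0.970, 1.28, 1.69 and 1.20 FPKM in control, 2.92, 2.48, 2.55 and 2.52 FPKM in PCOS and 1.71, 1.83, 1.004 and 1.73 FPKM in PCOS-MV replicates 1 to 4. Its PCOS values stood above both other groups. It rose 2.04-fold in PCOS (log2 fold change 0.67, SE 0.12, limma adjusted p = 0.00389) and fell to 0.5997-fold in PCOS-MV against PCOS (-0.50, SE 0.12, limma adjusted p = 0.0182). Kif7, a kinesin of the cilium tip, rose from 3.64 ± 0.128 FPKM (SD, n = 4) to 4.94 ± 0.394 FPKM in PCOS (limma adjusted p = 0.0113), and in PCOS-MV it was at 4.21 ± 0.590 FPKM, which did not pass the test against PCOS. The other tested ciliary genes, which include the transport genes Kif3a and Ift88, were not called in either comparison.

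**Figure D4:**
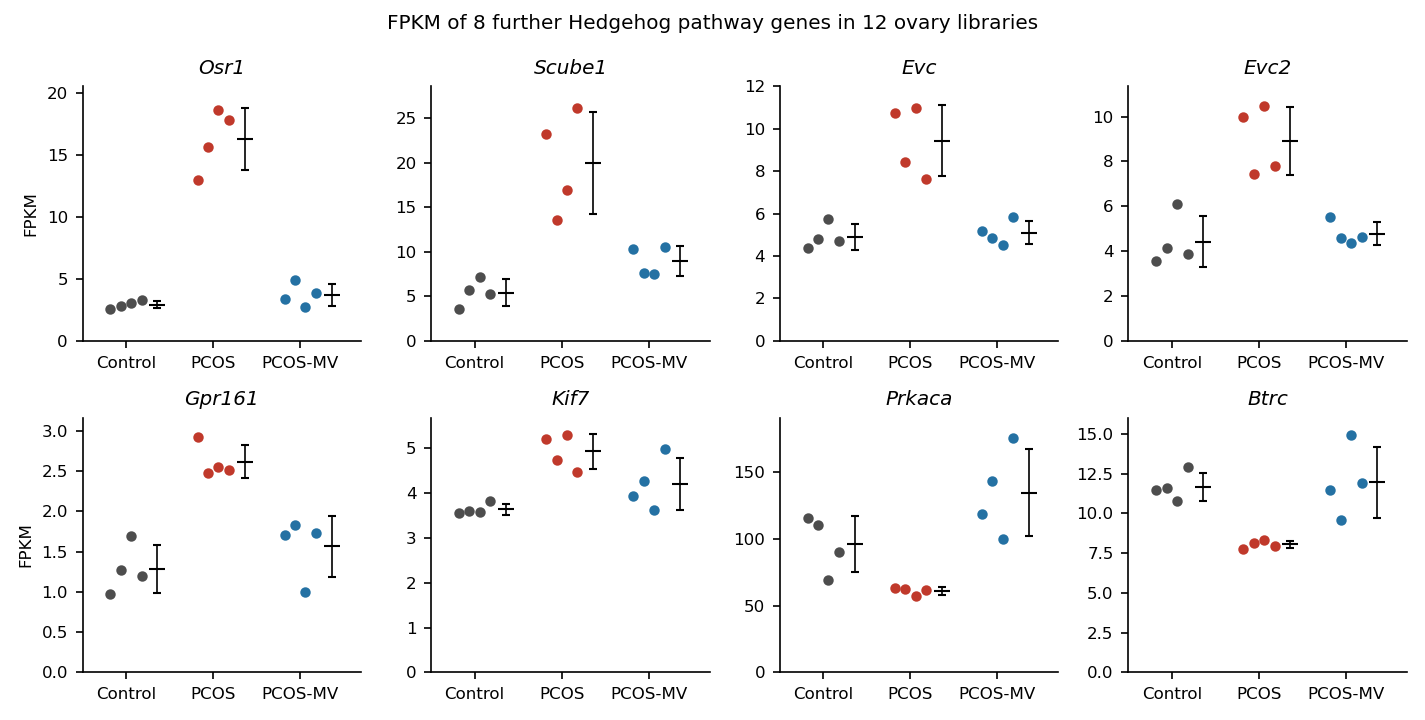
FPKM of 8 further pathway genes (vertical axes, starting at 0) in the 12 libraries, drawn from replicate 1 to 4 from left to right, with the mean and SD of each group beside the points. In Osr1, Scube1, Evc, Evc2 and Gpr161 the 4 PCOS libraries lie above all others, and in Prkaca and Btrc they lie below all others. Kif7 of PCOS-MV replicate 4 reaches into the PCOS range.

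Among 20 kinases and ubiquitin ligases that process GLI proteins, 2 fell and 0 rose in PCOS, and 3 rose in PCOS-MV against PCOS. Both shares were below the 27.4% and 25.7% of all tested genes called in the same comparisons. Prkaca, a catalytic subunit of protein kinase A, which phosphorylates GLI proteins for cutting, was at 116, 110, 69.3 and 90.1 FPKM in control, 62.9, 62.3, 57.0 and 61.6 FPKM in PCOS and 119, 144, 100.1 and 176 FPKM in PCOS-MV replicates 1 to 4. The PCOS libraries were the lowest 4 of the 12. Its log2 fold change was -0.62 (SE 0.15, limma adjusted p = 0.0155) in PCOS against control and 1.10 (SE 0.16, limma adjusted p = 0.00178) in PCOS-MV against PCOS. Btrc, a part of the ubiquitin ligase that marks phosphorylated GLI proteins, fell from 11.7 ± 0.879 FPKM (SD, n = 4) to 8.05 ± 0.238 FPKM (limma adjusted p = 0.00145) and was at 11.9 ± 2.22 FPKM in PCOS-MV (limma adjusted p = 0.0156 against PCOS). Dyrk2, a kinase that marks GLI proteins for degradation, rose by 0.32 (log2) in PCOS-MV against PCOS (limma adjusted p = 0.0251), a call lost without PCOS replicate 2 or 3 or PCOS-MV replicate 2 or 4 (0.0556 to 0.0745). Prkacb, another catalytic subunit of protein kinase A, was not called in these comparisons. Its means were 34.3 FPKM in control, 31.9 FPKM in PCOS and 32.9 FPKM in PCOS-MV. Prkaca and Btrc serve many other pathways.

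Of the genes known from other tissues to respond to Hedgehog, 19 were tested, and 2 rose and 3 fell in PCOS, with a median log2 fold change of -0.16. They did not move in 1 direction, and 26.3% were called in PCOS, beside 27.4% of all tested genes. Osr1, a zinc finger transcription factor of mesenchyme, was at 2.59, 2.83, 3.06 and 3.27 FPKM in control, 13.0, 15.6, 18.6 and 17.8 FPKM in PCOS and 3.37, 4.89, 2.76 and 3.83 FPKM in PCOS-MV replicates 1 to 4. The PCOS libraries lay far above the rest. Osr1 rose 5.54-fold in PCOS (log2 fold change 2.12, SE 0.12, limma adjusted p = 1.04e-05) and its log2 fold change in PCOS-MV against PCOS was -1.88 (SE 0.16, limma adjusted p = 0.000163). Nr2f2, a nuclear receptor of stroma, rose from 68.5 ± 6.68 FPKM (SD, n = 4) to 109.6 ± 7.34 FPKM (limma adjusted p = 0.000881) and was at 74.0 ± 10.6 FPKM in PCOS-MV. The Notch ligand Jag2 fell from 8.64 ± 0.596 FPKM (SD, n = 4) to 3.38 ± 0.268 FPKM (limma adjusted p = 3.7e-05) and was at 6.15 ± 1.58 FPKM in PCOS-MV, and cyclin D1 (Ccnd1) fell from 14.2 ± 3.43 FPKM to 8.07 ± 0.790 FPKM (limma adjusted p = 0.00873) and was at 8.61 ± 2.38 FPKM in PCOS-MV, where it was not called against PCOS.

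Markers of the cells that send and receive the signal also differed between the groups, and their part in the Hedgehog values was not tested. In PCOS against control, 57.1% of the stromal, 100% of the theca and 63.6% of the granulosa markers tested were called, beside 27.4% of all tested genes. Of 7 genes of theca progenitors and stroma, 4 rose and 0 fell in PCOS, with a summed level of 315 to 345 FPKM in control, 426 to 454 FPKM in PCOS and 301 to 411 FPKM in PCOS-MV libraries. Nr2f2, already counted among the responsive genes, is among the 4. Dcn, which was not called, held the largest part of this sum, with means of 155, 183 and 165 FPKM. Of 6 tested markers of steroid-producing theca cells, 4 rose, and Star and Cyp11a1 fell. Mean Star was 2219 FPKM in control, 716 FPKM in PCOS and 2054 FPKM in PCOS-MV. Mean Cyp11a1 was 2194, 968 and 1492 FPKM in the same order. The summed theca list overlapped between the groups, at 3309 to 5973, 2960 to 5766 and 2427 to 4976 FPKM. Cyp17a1, the enzyme of androgen synthesis, was at 17.0 to 63.6 FPKM in control, 655 to 1866 FPKM in PCOS and 1.57 to 88.1 FPKM in PCOS-MV libraries, and Insl3, a theca peptide hormone, was at 1.76 to 8.84, 906 to 1188 and 4.91 to 14.5 FPKM. In the summed theca list, Star and Cyp11a1 had the highest means in control and PCOS-MV, and Cyp17a1 and Insl3 in PCOS. Lhcgr was counted in both the theca and the luteal list. Of 11 granulosa markers, 6 rose and 1 fell in PCOS, with summed levels of 941 to 1309 FPKM in control, 1556 to 2218 FPKM in PCOS and 882 to 1448 FPKM in PCOS-MV. Inha held the largest part of this sum, with means of 490, 806 and 548 FPKM, and Gja1 followed with 270, 541 and 247 FPKM. Amh, Nr5a2, Hsd17b1 and Fst had lower means in PCOS than in control, and the other listed granulosa markers had higher means. Within each group the summed theca and luteal lists varied widely between rats, with luteal sums of 594 to 2210 FPKM in PCOS-MV.

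Genes of other cell types were called in both directions. Of 7 tested endothelial genes, 1 rose and 5 fell in PCOS, of 5 tested oocyte genes 1 rose, of 8 smooth muscle genes 1 rose and 1 fell, and of 7 tested leukocyte genes 2 rose. Of the luteal list, 2 of 6 rose and 3 fell (83.3%). Of 4 tested adipocyte genes 3 fell (75.0%), with summed levels of 16.1 to 63.5 FPKM in control, 3.89 to 8.41 FPKM in PCOS and 6.31 to 37.1 FPKM in PCOS-MV libraries. Of the 4, only Fabp4 was called in PCOS-MV against PCOS, and it rose. Mean Fabp4 was 18.0, 2.15 and 19.7 FPKM in control, PCOS and PCOS-MV. In the same order, mean Adipoq was 13.2, 1.52 and 1.27 FPKM and mean Cidec 3.03, 0.109 and 0.127 FPKM. Of 5 tested genes of Schwann cells, another known source of Dhh, and nerve, 1 rose and 2 fell (60.0%), with summed levels of 40.2 to 68.3, 37.8 to 43.3 and 59.9 to 71.9 FPKM in control, PCOS and PCOS-MV. The summed oviduct markers were at 32.4 FPKM in control replicate 3 and at 2.23 to 5.43 FPKM in the other 11 libraries, and none of the 3 tested was called.

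**Figure D5:**
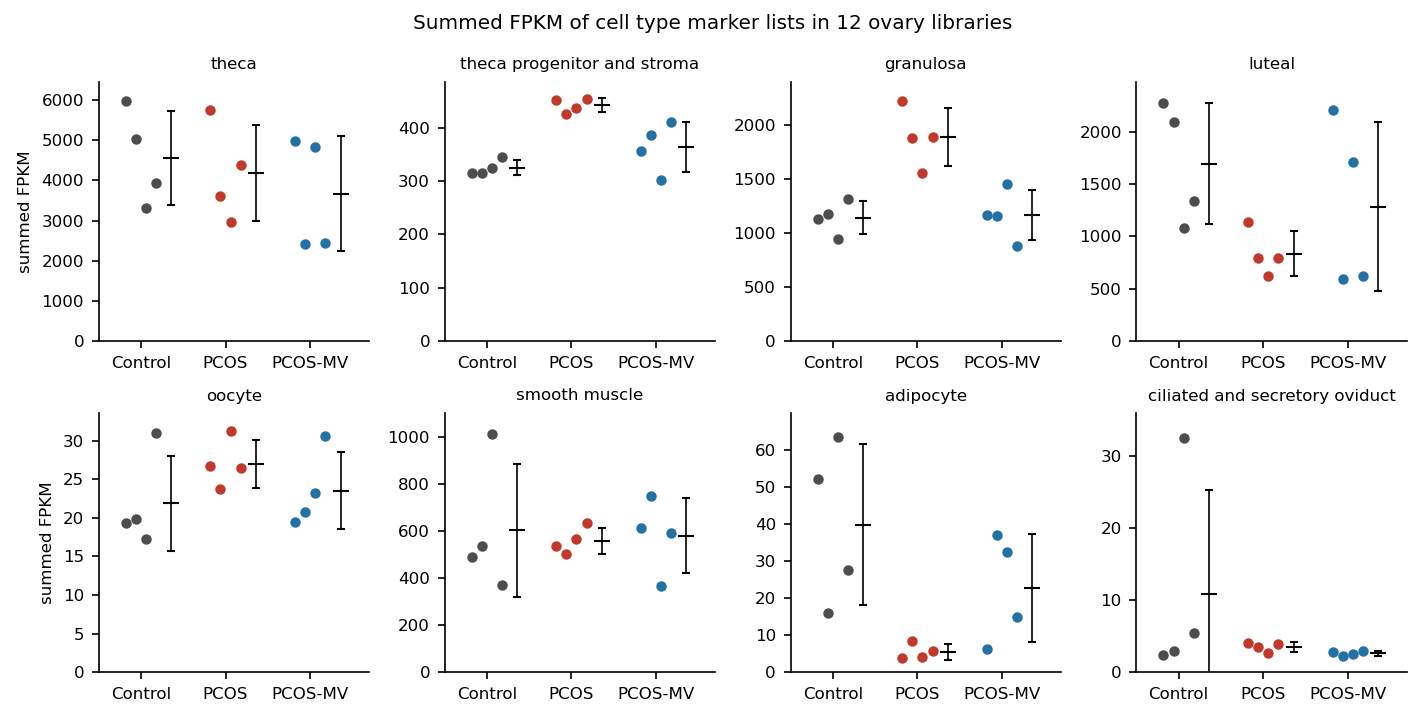
Summed FPKM of the matched genes of 8 cell type marker lists (vertical axes, starting at 0) in the 12 libraries, drawn from replicate 1 to 4 from left to right, with the mean and SD of each group beside the points. The stromal and granulosa sums of the 4 PCOS libraries lie above all other libraries, and control replicate 3 stands out in the smooth muscle and oviduct lists.

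For the called members, the genes of most similar profile over the 12 libraries were named by the root mean square difference of centred log2(FPKM + 1), searched over 12166 genes. For Ptch1, the 3 nearest were Tbx1 (0.109), Rnf19a (0.113) and Cnot6l (0.124), where Ptch1 itself deviated by 0.241 from its mean. For Gli1, they were Tcf23 (0.105), Espn (0.127) and Sipa1l1 (0.143), beside a deviation of 0.311. For Sufu, they were Zdhhc6 (0.0752), Il34 (0.0817) and Zdhhc3 (0.0893), beside 0.190. The measure describes these 12 libraries and has no test.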

How the data were processed

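Ovarian RNA of 12 rats was sequenced, 4 libraries per group. Libraries were assigned to groups by their titles and treatments in the labels. The authors deposited FPKM values per gene. Per the paper's methods the reads were aligned with HISAT2 and counted with featureCounts, whereas the submitters' processing notes name STAR 2.5.1b and HTSeq 0.6.0, and the genome build is not given in the sources used here. The authors' own fold changes, p-values and group means were not used. The table repeated each gene on its 26928 transcript lines with equal values, and 1 line per gene was kept (19730 genes). Total counts are not in the table. Among genes under 0.1 FPKM, the steps of the values put the depth of the libraries at 0.917 to 1.12 of that of control replicate 1.

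The test was limma 3.58.1 (R 4.3.3) on log2(FPKM + 1), over the 13430 genes whose mean reached 1 FPKM, 4 libraries against 4, with Benjamini-Hochberg adjustment over all of them and a threshold of 0.05. This scale understates fold changes of low genes. The p-values measure the spread between 4 rats per group. Single values were also compared by the exact two-sided permutation test over the 70 splits of 8 libraries. The alternatives were a pseudocount of 0.1, no filter, 1 model over all 12 libraries, median-ratio scaling, a replicate block and leaving out each library. The tests were tried on simulated data. The counts per list without control replicate 3 were added after the data were seen.

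The 9 members and the gene lists were chosen with earlier results of these data known. The genes named were the members, Shh, the called and non-overlapping genes of each pathway list up to the 4 with the largest change, the markers Cyp17a1, Insl3, Gdf9, Bmp15, Amh and Acta2, and for each called member the 3 genes of nearest profile. Pax8, Kif3a, Ift88, Boc, Gas1, Star, Cyp11a1, Dcn, Prkacb, Scube2 and Scube3 were named after their values were seen. So were Fabp4, Adipoq, Cidec, Lhcgr, Inha, Gja1, Nr5a2, Hsd17b1 and Fst. List names that were not matched by name in the table were Gpc5, Ift172, Foxf2, Hsd3b1, Akr1c18, Pecam1, Foxj1 and Ovgp1. Some genes of these lists are not reported here. Promoters were taken from RefSeq on GRCr8 by symbol. Tables were made with Python 3.11.15, pandas 2.3.3 and scipy 1.17.1.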

Additional observations from a re-analysis of the deposited data

Results flagged for a closer look

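Within each group of 4 libraries, the highest or lowest value was set apart when its gap to the nearest of the others exceeded the 95% critical value of Dixon's test. Of 99 groups examined over 33 genes, 5 met this rule, and chance gives about 1 in 20 groups, or 4.95.

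Gpr161 was at 2.92 FPKM in PCOS replicate 1, against 2.48 to 2.55 FPKM in the other PCOS libraries. In PCOS-MV replicate 3, Gpr161 was at 1.004 FPKM, against 1.71 to 1.83 FPKM in the other PCOS-MV libraries. Shh was at 0.0176 FPKM in control replicate 4 and listed at 0 in the other 3 control libraries. Insl3 was at 14.5 FPKM in PCOS-MV replicate 1, against 4.91 to 6.27 FPKM in the other PCOS-MV libraries. Bmp15, an oocyte growth factor, was at 1.86 FPKM in PCOS-MV replicate 4, against 1.52 to 1.57 FPKM. None of the 9 Hedgehog members had a value set apart in this way.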

How the results depend on the processing

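Of 13 alternatives, the fall of Ptch1 in PCOS passed the threshold in 6, the fall of Sufu in 5 and the fall of Gli1 in PCOS-MV against PCOS in 8, and the direction of these 3 changes held in all 13. The number of members called in PCOS against control was 1 without a filter on low values and 0 with the replicate block, and 0 to 2 with 1 library left out, where 19.4%, 21.6% and 20.6% to 29.2% of all tested genes were called. In PCOS-MV against PCOS it was 0 without a filter and 0 to 1 with 1 library left out, beside 17.9% and 18.2% to 25.0% of all tested genes, and in PCOS-MV against control it was 0 throughout. Over the libraries left out, the log2 fold change of Ihh in PCOS against control ran from -0.309 to 0.0217, that of Dhh in PCOS-MV against PCOS from -0.110 to 0.0753, that of Gli2 from -0.0948 to 0.0463 and that of Ccnd1 from -0.102 to 0.137, and in PCOS-MV against control Smo ran from -0.0187 to 0.108 and Gli2 from -0.0380 to 0.175. The genes called in PCOS-MV against control numbered 0 with the replicate block and 1 to 4 with 1 library left out. Without control replicate 3, 2 oocyte markers were called in PCOS against control, and with libraries rescaled by the median ratio, 1 oviduct marker was called in PCOS-MV against PCOS. The cause of these differences was not tested.

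The labels give no pairing beyond a shared number. The correlation of the deviations of same-numbered libraries from their group means ran from -0.0327 to 0.0236 between control and PCOS, from -0.0534 to 0.216 between control and PCOS-MV and from 0.0353 to 0.172 between PCOS and PCOS-MV, with 4 pairs each. In the last, 3 of the 4 were over 0.1, beside -0.157 to 0.0381 for the 12 pairs of different numbers. All 4 PCOS libraries and 3 of the 4 PCOS-MV libraries correlated best with their own number there, a hint from the data and not from the design. With the replicate block, the calls of Ptch1 (limma adjusted p = 0.0824), Sufu (0.0996), Gpc3 (0.0644), Adam17 (0.0694), Cdon (0.0949), Grk2 (0.0770) and Kif7 (0.0570) in PCOS and that of Dyrk2 (0.0689) in PCOS-MV against PCOS were lost. With 1 model over all 12 libraries Dyrk2 was at a limma adjusted p of 0.106 in PCOS-MV against PCOS, and with rescaled libraries Adam17 was at 0.0593 in PCOS. Without the filter, the limma adjusted p was 0.0596 for Sufu and 0.0595 for Adam17 in PCOS and 0.0518 for Gli1 in PCOS-MV against PCOS. Rescaling left 49.99% of the calls in PCOS against control higher, beside 43.3%. Library depth differed little. At a given gene length, genes near 1 FPKM, such as Gli1 and Gpc6, have fewer reads behind them than genes of higher FPKM. Reads per gene are not given.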

Other observations

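Several further markers of follicle cells were named for this tissue. Amh, made by granulosa cells of small follicles, was at 34.0, 47.7, 42.1 and 71.7 FPKM in control, 23.8, 45.6, 23.8 and 18.7 FPKM in PCOS and 38.6, 41.3, 45.0 and 39.5 FPKM in PCOS-MV replicates 1 to 4, and it was not called by limma in PCOS against control (log2 fold change -0.81, SE 0.29, adjusted p = 0.0738) or PCOS-MV against PCOS (0.62, SE 0.23, adjusted p = 0.0865). Without PCOS replicate 2 it passed in both (limma adjusted p = 0.0174 and 0.00259), and in 1 model over all 12 libraries it passed in PCOS against control (0.0360). The oocyte factors Gdf9 and Bmp15, known to act on granulosa cells, were at 3.49 ± 0.419 and 1.23 ± 0.280 FPKM (SD, n = 4) in PCOS ovaries, against 4.60 ± 1.13 and 1.84 ± 0.592 FPKM in control and 5.17 ± 1.21 and 1.62 ± 0.155 FPKM in PCOS-MV, and neither was called by limma (adjusted p 0.0527 to 0.186). Gdf9 passed without control replicate 3 in PCOS against control (limma adjusted p = 0.0491) and without PCOS-MV replicate 2 in PCOS-MV against PCOS (0.0300).

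The ratios of Hedgehog genes within a library were computed after the values had been seen. The ratio of Gli1 to Ptch1 was 0.0512 to 0.0836 in control, 0.119 to 0.155 in PCOS and 0.0423 to 0.0855 in PCOS-MV libraries, and the PCOS libraries did not overlap the others. The ratio of Gli1 to Gli2 was 0.432 to 0.581 in control, 0.577 to 0.877 in PCOS and 0.291 to 0.456 in PCOS-MV libraries, where PCOS and control overlapped in 1 pair of libraries. Since these ratios were chosen on the same values, they are given as a description without a test.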
